A study of Caenorhabditis elegans with 2 samples.

Results

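The 8 genes described here encode listed subunits of SNAPc and the TATA-box-binding protein (TBP) of Caenorhabditis elegans. SNAPc is the complex that activates small nuclear RNA genes. The genes are 8 of 19973 annotated nuclear protein-coding genes, and a further one that RefSeq names snpc-1.4 is not among them. They were taken by name: snpc-1.1, snpc-1.2 and snpc-1.3, related to human SNAPC1; snpc-3.1, snpc-3.2 and snpc-3.4, related to human SNAPC3; snpc-4, related to human SNAPC4; and tbp-1. The study mapped the chromatin sites of SNPC-1.2 by ChIP-seq with an antibody to GFP. There was 1 group of 2 biological replicates, whole larvae at the L4 stage (48 hours), synchronised as starved L1 larvae after bleaching. All animals were of strain RW12251, which carries the allele st12251[snpc-1.2::TY1::EGFP::3xFLAG] on chromosome III, a CRISPR insertion at snpc-1.2 itself. The chromatin came from all tissues together and sex was not recorded. There was no second condition and no control library was analysed here.

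SNAPc binds the proximal sequence element upstream of small nuclear RNA (snRNA) genes. These encode the RNA parts of the spliceosome, and SNAPc supports their transcription by RNA polymerase II or III. TBP joins promoters of all nuclear RNA polymerases, and at snRNA genes it acts together with SNAPc. In C. elegans, SNPC-4 also occupies the piRNA gene clusters of chromosome IV and is needed there for transcription of piRNAs, short germline RNAs that guide silencing. The lists therefore show whether the tagged subunit was called at the genes that encode its own complex.

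In the whole-series thresholded list 1 of the 8 genes, snpc-3.4, had a peak at the 5' end (summit within 250 bp), against 2.48% of protein-coding genes. With either whole-series list, a setting added after seeing the data, the count was 2 of 8, against 2.76%. Both genes, snpc-3.1 and snpc-3.4, belong to the SNAPC3-related group. Replicate 1's own list gave 0 of 8, against 1.22%. At snpc-3.1 a peak with a signal value of 325 lay 177 bp upstream of the 5' end in the conservative list, and each replicate's own list held an overlapping peak. The region is shared with the divergent gene puf-7. Replicate 1's summit was nearer to puf-7, and at 302 bp upstream of snpc-3.1 it was too far to be counted. At snpc-3.4 a peak of 102 lay 20 bp upstream in both whole-series lists. The snpc-1.2 gene that carries the tag, snpc-1.1, snpc-1.3, snpc-3.2, snpc-4 and tbp-1 had no thresholded peak within 10 kb in any of the 4 lists. Most protein-coding genes had none so near either. In the whole-series thresholded list their median distance was 22.3 kb, and 32.4% had a summit nearer than the 10999 bp of tbp-1. The snpc-3.1 sequence exists in 3 further near-identical copies in the genome, at which no thresholded peak was called.

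The promoters of both genes, from 250 bases before to 49 bases after the 5' end, are shown for the sequence at their summits, with an snRNA promoter of the same lists for comparison. They were read from the RefSeq genome of assembly WBcel235 (the build named ce11 in the files), on the strand of the gene. In the first 2, capitals mark the 21 bases centred on the summit. In the third, the snRNA gene Y57G11C.35 from 80 bases before to 4 bases after its 5' end, capitals mark TGTCGG, a word common upstream of snRNA genes. That gene had the highest peak among the 51 occupied snRNA genes considered for this, with a signal value of 1356 at 20 bp upstream in the whole-series thresholded list.
snpc-3.1 (chrIV:5486209-5486508, minus strand): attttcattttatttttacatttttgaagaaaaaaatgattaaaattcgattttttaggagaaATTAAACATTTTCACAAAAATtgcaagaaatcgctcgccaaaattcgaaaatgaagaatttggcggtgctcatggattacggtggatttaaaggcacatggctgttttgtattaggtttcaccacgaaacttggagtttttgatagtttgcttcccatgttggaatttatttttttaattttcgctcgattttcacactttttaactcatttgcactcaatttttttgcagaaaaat
snpc-3.4 (chrIII:4019787-4020086, plus strand): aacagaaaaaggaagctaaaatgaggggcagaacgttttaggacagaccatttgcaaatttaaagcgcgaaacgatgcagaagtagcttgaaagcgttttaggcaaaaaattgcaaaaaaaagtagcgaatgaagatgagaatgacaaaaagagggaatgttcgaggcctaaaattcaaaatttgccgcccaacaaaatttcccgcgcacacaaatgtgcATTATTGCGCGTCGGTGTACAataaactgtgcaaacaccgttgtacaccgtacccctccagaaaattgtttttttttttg
Y57G11C.35 (chrIV:14765030-14765114, minus strand): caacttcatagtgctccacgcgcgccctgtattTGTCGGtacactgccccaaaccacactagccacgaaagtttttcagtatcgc

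The lists have 4 thresholded and 4 ranked versions. The irreproducible discovery rate (IDR) given for a peak is the estimated share of non-repeatable peaks among those that rank at least as high. A thresholded list keeps peaks with an IDR of about 0.01 or less. It held 2829 nuclear peaks for the whole series, 2753 in the whole-series conservative version, 1411 for replicate 1 and 1737 for replicate 2. The ranked lists hold weak calls too, 62314 to 84299 nuclear calls each. The signal value is the peak caller's own height of a peak, as the authors deposited it with no scale stated, so it is compared only within a list. The lists carry no read numbers, and the precision of a single value could not be worked out. A gene is called occupied when a summit, the highest point of a peak, lies within 250 bp of its 5' end.

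In the whole-series thresholded list 1 of the 8 genes was occupied, against 496 of 19973 protein-coding genes (2.48%). The conservative list gave 2 of 8, against 471 (2.36%). Replicate 1's own list gave 0 of 8, against 243 (1.22%), and replicate 2's own list 2 of 8, against 308 (1.54%). With windows of 100, 500 and 1000 bp the whole-series list gave 1 of 8, against 0.861%, 4.26% and 6.52% of protein-coding genes. It also gave 1 of 8 with any overlap of the peak with the window, against 3.77%, and with the 5' end of any transcript, against 2.9%. It gave 2 of 8 with summits in the gene body counted, against 6.45%, and 0 of 8 with the 500 highest peaks, against 0.386%. In the settings added after seeing the data, either whole-series list gave 2 of 8, against 2.76%, and the ranked list of true replicates with an IDR of up to 0.05, which changes both the list and the limit, gave 2 of 8, against 3.96%. The count thus ran from 0 to 2 with the list and setting used, and no gene other than snpc-3.1 and snpc-3.4 was counted in any of these settings. With so few members, and members named with earlier results known, no test was made of these counts. The gene in the first list was snpc-3.4, and the conservative list and replicate 2's list held snpc-3.1 and snpc-3.4. The replicates are separate biological samples, and no difference between them was tested. The IDR in a replicate's own list does not compare the 2 replicates. A peak can thus be in 1 list and not in another when its IDR falls on different sides of the limit, as at snpc-3.4. A ranked list can also lack the call, as 1 whole-series ranked list did at the snpc-3.1 promoter.

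**Figure D1:**
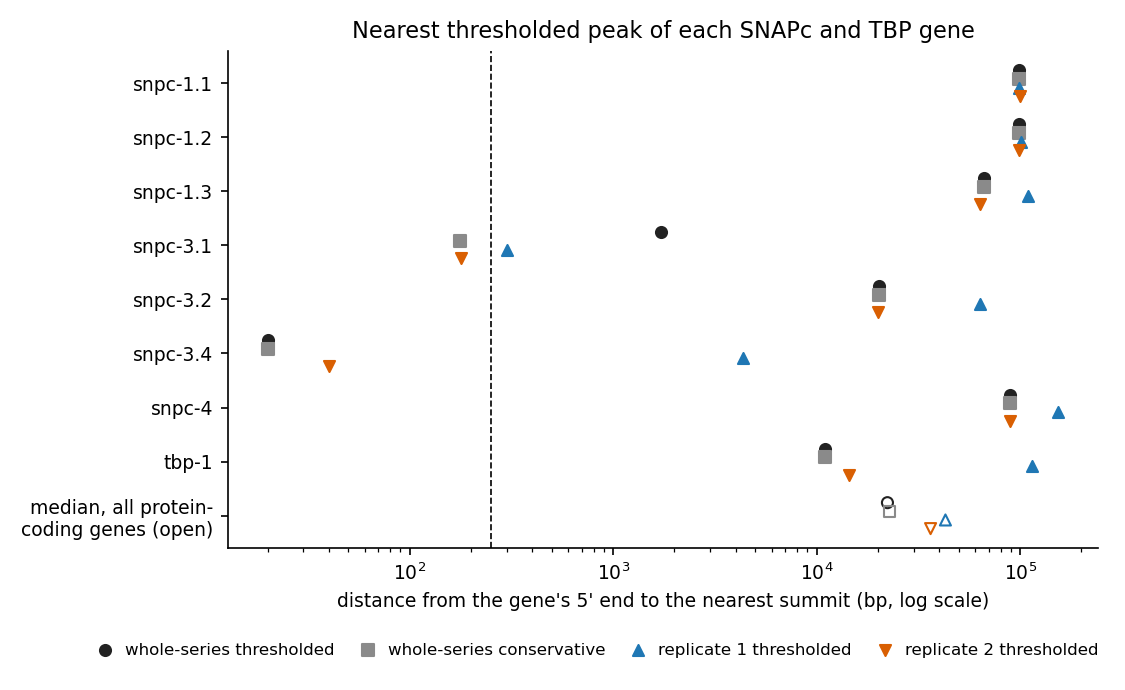
Distance in bp (log scale) from the 5' end of each gene to the nearest summit in the 4 thresholded lists; open symbols in the bottom row give the median of all 19973 protein-coding genes in the same lists, and the dashed line is at 250 bp. Symbols of snpc-3.1 and snpc-3.4 lie near or left of the line in at least 2 lists, and those of the other 6 genes lie beyond 10 kb in every list.

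The strongest call at a member was at snpc-3.1, a SNAPC3-related gene (WBGene00015098, chromosome IV, 5484039 to 5486258, minus strand, 6 exons). In the conservative list its peak ran from 5486320 to 5486512 with the summit at 5486435 and the signal value of 325. Only 7.34% of the nuclear peaks of that list were higher. Replicate 1's own list had a peak from 5486405 to 5486714 with a signal value of 132, and 20.1% of its peaks were higher. Replicate 2's own list had a peak from 5486350 to 5486483 with a signal value of 204, and 8.64% of its peaks were higher. Both replicates therefore held this call, but at different summits: 178 bp upstream of the 5' end in replicate 2, and 302 bp upstream in replicate 1, just outside the 250 bp window. The conservative peak was 193 bp wide and replicate 2's 134 bp wide, below the list medians of 340 and 316 bp, while replicate 1's was 310 bp wide, the median of its list.

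The region between the 5' ends of snpc-3.1 and puf-7 is 455 bp long and is shared by both genes, which point away from each other. The gene puf-7 encodes a Pumilio domain protein, a family that binds RNA. Replicate 1's summit lay nearer to puf-7, 153 bp upstream of its 5' end, so the call cannot be given to 1 of these genes. No annotated non-coding RNA gene was close: the nearest was the piRNA gene 21ur-1993, 3584 bp away, and the nearest tRNA, snRNA, snoRNA or rRNA gene was 141887 bp away. The locus lies in the first piRNA cluster of chromosome IV (4.5 to 7.0 Mb). There the conservative list occupied 42 of 482 protein-coding genes (8.71%), above its 2.36% over all protein-coding genes.

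The whole-series thresholded list did not hold this promoter peak. Its nearest summit was inside snpc-3.1, 1710 bp downstream of the 5' end with a signal value of 79.6, and another of 71.7 lay 49 bp beyond the 3' end. Both of these were also in the conservative list and in neither replicate's own thresholded list. The ranked calls there were 41.0 and 37.0 in replicate 1 and 46.8 and 43.6 in replicate 2. The 2 whole-series thresholded lists were cut from different ranked lists. Every peak of the conservative list stood, with the same score, in the ranked list that compares the true replicates (100%), and every peak of the other thresholded list in the other ranked list (100%). In the ranked list of true replicates the promoter call had an IDR of 1.69e-05 and ranked 216 of 83957 by signal. The other whole-series ranked list had no call there and its nearest was 600 bp downstream of the 5' end, with a signal value of 40.3 and an IDR of 0.398. Of the 2753 nuclear conservative peaks, 402 overlapped no peak of the whole-series thresholded list. Of 1011 nuclear conservative peaks that overlap a peak of both replicates' own lists, 9 (0.89%) overlapped none, and 5 of these 9 overlapped no call of the other ranked list either. The snpc-3.1 peak was the third highest of these 9, after peaks nearest to snx-17 (367) and C28G1.2 (363) on chromosome X.

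**Figure D2:**
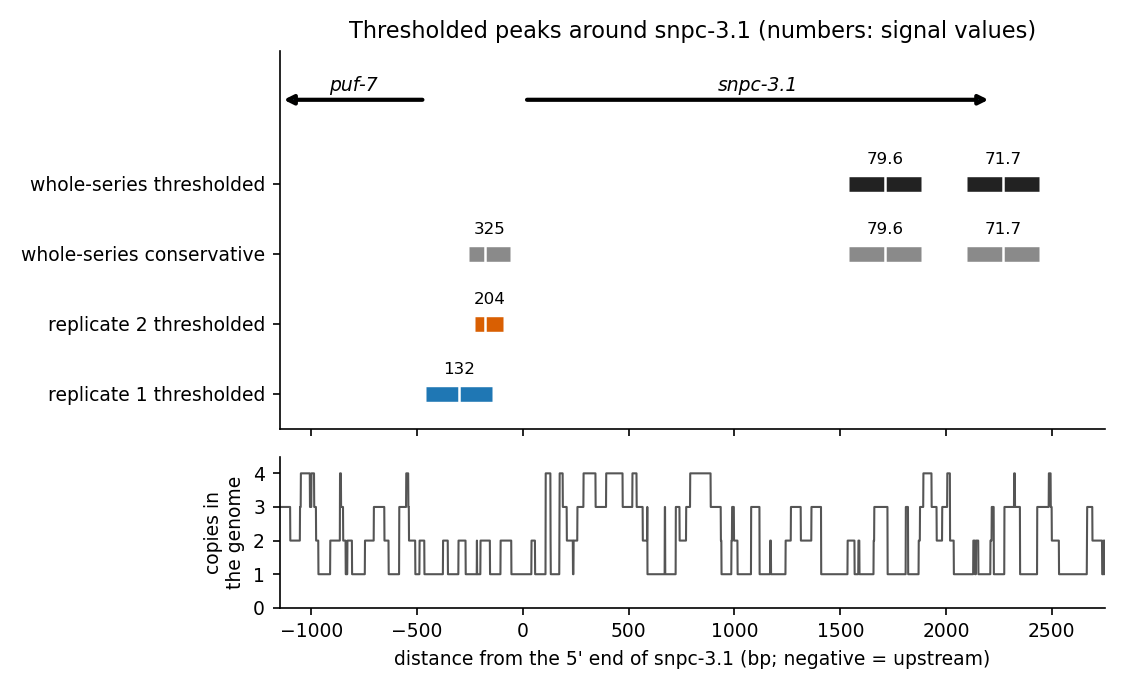
Upper panel: thresholded peaks around snpc-3.1 as bars from start to end in bp from its 5' end, with the summit as a white line, the signal value above each bar and genes as arrows. Lower panel: number of exact copies in the genome of the 50-base word centred at each position. The promoter peaks of 325, 204 and 132 lie between the 5' ends of the 2 genes, replicate 1's reaching that of puf-7, and the whole-series thresholded list has bars only at the 3' part of the gene.

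The snpc-3.1 promoter is not unique sequence. Of the 50-base words in its peak 54.9% occur once in the genome, and of the 25-base words 20.7%. Of the 50 words that cover the summit base, 5 are unique, and at replicate 1's summit 23 are. The gene body is not unique either: 44.1% of its 50-base words occur once. The word centred at the whole-series thresholded summit 1710 bp downstream of the 5' end occurs 3 times in the genome. That summit is the one that counts snpc-3.1 when summits in the gene body are included. The part of repeated sequence in that peak was not tested. The 501 bases around the 5' end align to 3 other places. They are identical at 487 of 497 aligned bases (98.0%) to a stretch at the pseudogene WBGene00021662, named snpc-3.3 in RefSeq, on chromosome I. At the 5' end of snpc-3.2 the identity is 472 of 497 bases, and at the pseudogene WBGene00008933 on chromosome II it is 97.8%. No peak of the 4 thresholded lists came within 250 bp of any of these 3 copies, and ranked calls were counted within the same margin. In replicate 1's ranked list the highest signal value was 132 at snpc-3.1, against 21.2 at snpc-3.3, 28.1 at snpc-3.2 and 17.7 at WBGene00008933. In replicate 2's ranked list it was 204 at snpc-3.1, against no call at snpc-3.3, 27.4 at snpc-3.2 and 22.0 at WBGene00008933. The values at snpc-3.3 depend on where the copy is taken to end. With the bounds of its match to snpc-3.2 instead, replicate 2 had a call of 26.2 there, and the whole-series ranked list of true replicates had 52.7 in place of 34.7. With either bounds snpc-3.1 was the highest of the 4 places in both replicates. How reads that match several places were treated is not given in these sources, and the part of these copies in the call was not tested.

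**Figure D3:**
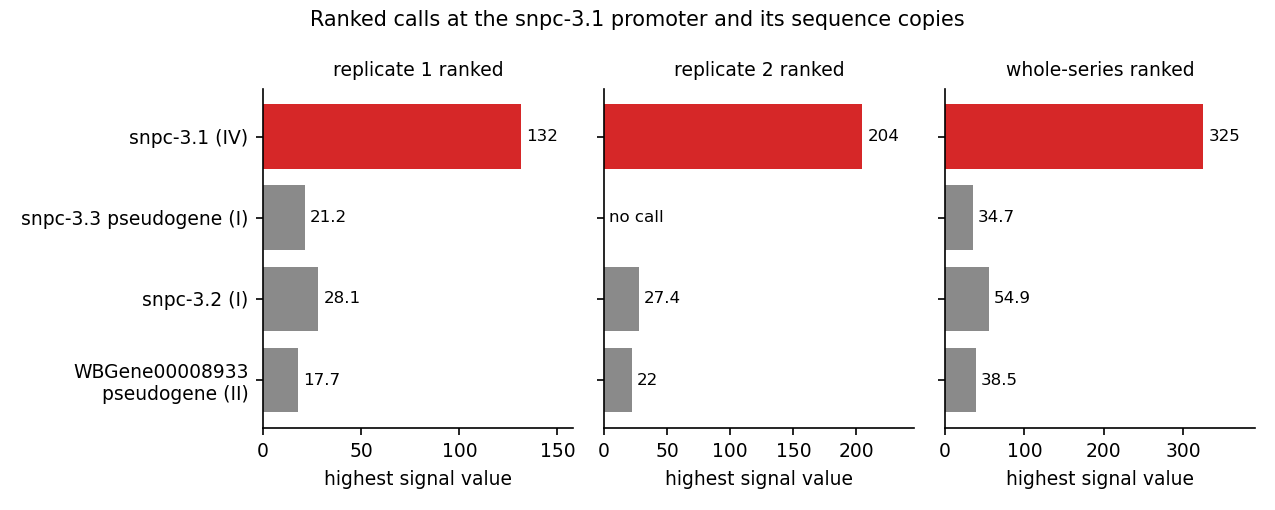
Highest signal value (linear scale) of any ranked call at the snpc-3.1 promoter (summit within 500 bp of the 5' end) and within 250 bp of each of its 3 near-identical copies, in each replicate's ranked list and in the whole-series ranked list of the true replicates. The snpc-3.1 bars of 132, 204 and 325 exceed the bars of the copies, which run from no call to 54.9. With the other bounds of the snpc-3.3 copy its replicate 2 value is 26.2 and its whole-series value 52.7.

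The gene snpc-3.4 (WBGene00011367, chromosome III, 4020037 to 4021883, plus strand, 8 exons) had the peak nearest to a 5' end. Its summit at 4020017 was 20 bp upstream in both whole-series lists, nearer than at all but 0.155% of protein-coding genes of the thresholded list. The signal value of 102 was ordinary for that list, with 55.9% of the nuclear peaks higher. In replicate 2's own list the peak had a signal value of 52.2 at 40 bp upstream, with an IDR of 0.00710 in its ranked list. In replicate 1's ranked list the call was at 63 bp upstream with a signal value of 45.5 and an IDR of 0.0173, which misses the limit of the thresholded list. The replicates thus placed the summit within 23 bp of each other, on different sides of that limit. Of the protein-coding genes with a ranked call in the window, 7.18% had a higher signal value in replicate 1 and 6.26% in replicate 2. Every 50-base word and every 25-base word of this peak occurs once in the genome. The nearest non-coding RNA gene, C36E8.10, was 1920 bp away, and the nearest protein-coding gene was tftc-5, 2129 bp away, named as a TFIIIC subunit of the polymerase III machinery.

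The sequence at the snpc-3.4 summit holds GTCGGT, which starts 20 bases upstream of the 5' end, at the summit base. In the Y57G11C.35 promoter shown, GTCGGT lies farther upstream and not at the summit. This word is in 27 of 129 annotated snRNA genes within the 80 bases upstream (20.9%, same strand). It is in 920 of 19973 protein-coding promoter windows of 300 bases (4.61%, either strand). Among the 8 members, snpc-3.4 and snpc-1.3 have it. The word was chosen after the sequence had been seen, and overlaps TGTCGG, which is in 31.8% of the snRNA genes and 6.88% of the promoter windows. TGTCGG is in the snpc-4 window only, and CGGAACC, another word of snRNA promoters (24.8%, against 1.14% of promoter windows), in the snpc-1.3 window only. The piRNA promoter word CTGTTTCA is in no member window, against 2.32% of promoter windows. TATAAA is in the windows of 3 members, snpc-1.1, snpc-1.2 and tbp-1, against 37.9% of promoter windows. The snpc-3.1 window holds none of these 5 words on either strand.

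The snpc-3.2 gene (WBGene00021667, chromosome I, 252107 to 254294, plus strand), the third SNAPC3-related member and a copy of the snpc-3.1 sequence, had only ranked calls. Replicate 1's call was 196 bp upstream with a signal value of 28.1, and replicate 2's 194 bp upstream with 27.4. The 2 summits were 2 bp apart, but the IDR was 0.728 in replicate 1's ranked list and 0.350 in replicate 2's, and 0.0928 in the whole-series list of true replicates. Of the 50-base words around its 5' end, 62.8% are unique. Its nearest summit in the whole-series thresholded list was 20140 bp upstream.

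The SNAPC1-related genes, the group of the tagged protein, had no call at the 5' end that reached the IDR limit. For snpc-1.2 (WBGene00012715, chromosome III, 13165659 to 13169541, minus strand), where the tag was inserted, the nearest summit of the whole-series thresholded list was 98814 bp downstream of the 5' end. That is farther than for 92.2% of protein-coding genes. The highest ranked call within 500 bp was inside the gene, 437 bp downstream with a signal value of 27.3 in replicate 1. In replicate 2 it was 449 bp upstream with a signal value of 16.5, and a call of 25.6 lay 506 bp downstream. In the ranked list of true replicates these downstream values of 27.3 and 25.6 were paired for a call of 56.7 with an IDR of 0.121. The same 25.6 was paired again, with 5.03, for a call of 7.43 at 264 bp downstream. Replicate 1 also had a call of 5.03 at 224 bp downstream, lower than 96.1% of protein-coding genes with a call in the window. Its 5' end lies 375 bp from that of the divergent gene Y39E4B.5, and the 50-base words around it are all unique.

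For snpc-1.1 (WBGene00015513, chromosome II, 7779297 to 7781301, minus strand) the nearest thresholded summit was 98624 bp away in the whole-series list. The whole-series ranked list of true replicates had a call 115 bp upstream with a signal value of 34.7 and an IDR of 0.531, in the 265 bp that separate it from the divergent gene spdl-1. Neither replicate's own ranked list had a call within 500 bp of this 5' end. For snpc-1.3 (WBGene00017265, chromosome V, 5437084 to 5439168, minus strand), a SNAPC1-related gene known for its part in male piRNA transcription, the nearest summit of the whole-series thresholded list was 66035 bp upstream, and that of replicate 2's own list 63736 bp upstream. Its nearest ranked call was 542 bp downstream in replicate 2, with a signal value of 35.6 and an IDR of 0.288, and 1951 bp upstream in replicate 1. The whole-series list of true replicates had a call of 12.6 at 360 bp downstream, with an IDR of 0.105. It also had a higher call of 57.15 at 562 bp downstream, with an IDR of 0.106. The value of replicate 2 paired with the call of 12.6 was the 35.6 of its call at 542 bp. None of the 3 SNAPC1-related genes thus had a ranked call within 250 bp of the 5' end in both replicates' own lists, against 17.5% of protein-coding genes.

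The gene snpc-4 (WBGene00001568, chromosome I, 8962322 to 8966129, plus strand, 15 exons) encodes the large subunit that carries Myb-like DNA-binding repeats in its relatives. No ranked call lay within 500 bp of its 5' end in any list. The nearest were inside the gene 1024 bp downstream in replicate 1, with a signal value of 31.5 and an IDR of 0.140, and 4084 bp downstream in replicate 2, with 19.9. In 1 whole-series ranked list a call of 65.9 lay 994 bp downstream with an IDR of 0.0307, and the list of true replicates did not hold it. The nearest summit of the whole-series thresholded list was 88978 bp away.

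The gene tbp-1 (WBGene00006542, chromosome III, 7384033 to 7386124, plus strand), which encodes TBP, had a weak ranked call at its 5' end in both replicates. The call lay 47 bp downstream with a signal value of 15.4 in replicate 1 and 43 bp downstream with 13.1 in replicate 2. The IDR was 0.700 and 0.862, and 68.4% and 77.9% of protein-coding genes with a ranked call in the window had a higher signal value. The nearest summit of the whole-series thresholded list was 10999 bp upstream.

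Ranked calls close to a 5' end were common over all genes. In the whole-series ranked list of true replicates 5 of the 8 genes had a call within 250 bp, against 35.2% of protein-coding genes. The other whole-series ranked list gave 4 of 8, against 35.1%. Each replicate's own ranked list gave 4 of 8, against 28.4% in replicate 1 and 30.5% in replicate 2. In both replicates' own ranked lists together it was 3 of 8, snpc-3.2, snpc-3.4 and tbp-1, against 17.5%. Within 500 bp, 5 of 8 had a call in both, against 6382 protein-coding genes (32%), whose median signal value was 23.4 in replicate 1 and 24.6 in replicate 2. Among those 5 genes snpc-3.1 and snpc-3.4 lay above both medians by the widest margin, snpc-3.2 was at 28.1 and 27.4, and snpc-1.2 and tbp-1 were below the replicate 2 median. For snpc-1.2 and tbp-1 the highest calls of the 2 replicates within 500 bp lay on different sides of the 5' end. At snpc-1.2 they were 437 bp downstream in replicate 1 and 449 bp upstream in replicate 2. Replicate 2's downstream call of 25.6 there, at 506 bp, fell just outside the window.

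**Figure D4:**
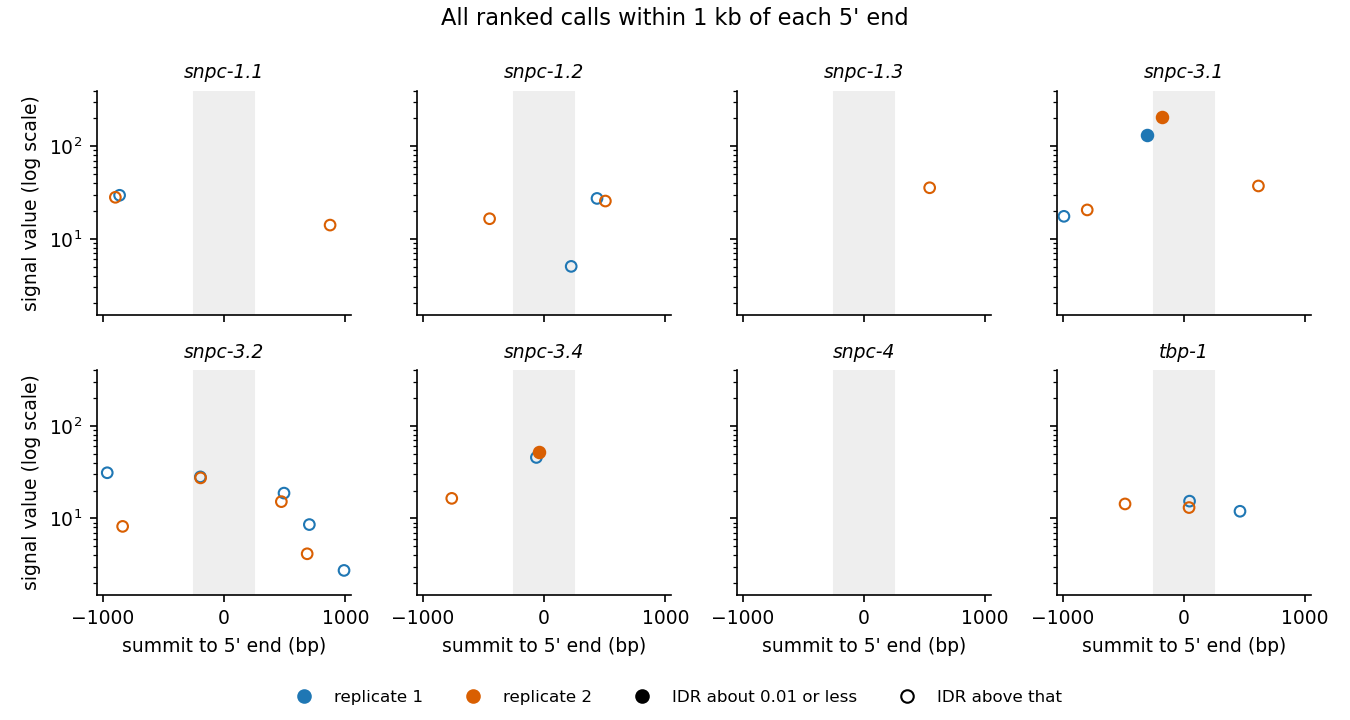
Every ranked call within 1 kb of each 5' end in the replicates' own lists, by distance of the summit in bp (negative is upstream) and signal value on a log axis; filled symbols have an IDR of about 0.01 or less and grey marks the 250 bp window. Filled symbols occur at snpc-3.1 in both replicates and at snpc-3.4 in replicate 2.

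**Figure D5:**
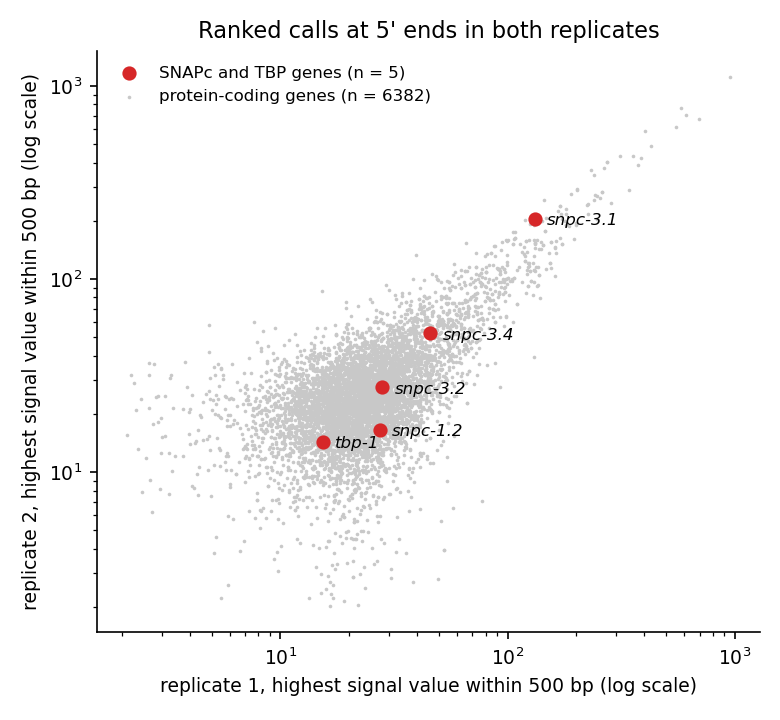
Highest signal value of a ranked call within 500 bp of the 5' end in replicate 1 and replicate 2 (log axes), for the 5 members and the 6382 protein-coding genes with a call in both. The snpc-3.1 point (132 and 204) lies near the upper end of the cloud, snpc-3.4 (45.5 and 52.2) in its upper part, snpc-3.2 just above its middle, and snpc-1.2 and tbp-1 below it in replicate 2. For snpc-1.2 and tbp-1 the 2 replicates' values are of calls on different sides of the 5' end. The calls nearest to the 5' end of tbp-1 lay on the same side, 47 and 43 bp downstream.

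By the signal values that the ranked list of true replicates pairs for the 2 replicates, 45.5 and 52.2, snpc-3.4 was most like Y105C5A.24 (46.0 and 51.8) and Y105C5B.5 (45.1 and 52.8) on chromosome IV and bir-2 (44.8 and 52.8) on chromosome V. Likeness was the distance between log2 signal values over the 2 replicates, among 492 other occupied protein-coding genes. These 3 genes lay 0.02 to 0.03 log2 units from snpc-3.4.

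Other genes of the machinery that works with SNAPc were counted in the same way. Of 61 genes in 4 groups, 2 were occupied in the whole-series thresholded list and 4 in the conservative list, against 2.48% and 2.36% of protein-coding genes. Among 35 genes of TFIID and other general transcription factors, pqn-51, which encodes a TFIIA subunit, had a peak of 147 at 181 bp upstream. Its signal value was 83.2 in replicate 1's own list and 70.5 in replicate 2's. Among 11 genes of Integrator, the complex that cleaves snRNA 3' ends, ints-4 had a peak of 132 at 16 bp downstream, with 76.7 in replicate 1's own list and 66.5 in replicate 2's. Both genes, out of the 61, were thus called in all 4 thresholded lists, which no SNAPc or TBP gene was. The share of protein-coding genes occupied in all 4 lists was not counted. That share can be no higher than the 1.22% of replicate 1's own list. With so few SNAPc and TBP genes, the lack of such a gene among them therefore does not set them apart. Among 10 genes of RNA polymerase III and its factors, rpc-2, the second-largest subunit of the enzyme, had a peak of 75.3 in the conservative list only, as did taf-10, a TFIID subunit, with 80.4. None of 5 genes of piRNA transcription, which include prde-1, tofu-4 and tofu-5, partners of SNPC-4, was occupied in any of the 4 thresholded lists, against 1.22% to 2.48% of protein-coding genes, and 1 of the 5 was in the ranked list of true replicates at an IDR of up to 0.05, against 3.96%.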

How the data were processed

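Peaks of anti-GFP ChIP-seq from 2 replicates were analysed as 8 lists on assembly ce11, 4 thresholded and 4 ranked. Per the notes filed with the samples, both replicates' alignments and a control went into the whole-series lists. Aligner and peak caller are not given in these sources. The deposited signal value is the peak caller's, with no scale stated. From the values, a score in the deposited lists equals 125 times the log2 of the inverse IDR, with a cap of 1000. Ranked lists were deposited with a column of −log10 IDR. Fragments were 200 to 800 bp per the labels.

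The annotation was release 115 of Ensembl for WBcel235; no peak ended beyond its chromosome. Distances run from the outermost 5' end of a gene to the summit. Mitochondrial peaks were left out. In C. elegans many transcripts are trans-spliced, so an annotated 5' end can lie downstream of the start site. The ranked list that holds every conservative peak was taken to compare the true replicates, since 66.9% of its first set of signal values stood in replicate 1's own ranked list; what the other ranked list compares is not given. Copies are exact matches of 50-base or 25-base words on either strand, and identity comes from local alignment. Sequences are from the RefSeq genome; the snRNA gene shown was taken from the occupied ones that are not on chromosome I. The scripts (Python 3.11.15, numpy 2.4.6, pandas 2.3.3) were tested on simulated data.

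The members, the gene lists and the alternatives were chosen with earlier results of these data known. The named genes are the 8 members, their neighbours and nearest summits, every occupied gene of the other lists, and the 3 genes most like snpc-3.4. Of 78 names in the other lists, 61 were in the annotation; a further name, maf-1, was left out because it is a bZIP gene and not the polymerase III regulator meant. Everything was computed as counts and values, with no test. Alternatives were other lists, windows, 5' ends and each replicate left out.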

Additional observations from a re-analysis of the deposited data

How the results depend on the processing

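Of the 8 genes, 1 was occupied with windows of 100, 500 and 1000 bp, with any overlap of the peak and with the 5' end of any transcript, and that gene was snpc-3.4. The count was 2 with the conservative list, with the gene body included, and, in settings chosen after seeing the data, with either whole-series list or with the ranked list of true replicates at an IDR of up to 0.05, which changes list and limit together (2 each); it was 0 with the 500 highest peaks and 0 to 2 with a replicate left out. The background of 2.48% became 0.861%, 4.26% and 6.52% with windows of 100, 500 and 1000 bp, 3.77% with any overlap, 6.45% with the gene body, 0.386% with the 500 highest peaks, 3.96% with that ranked list, and 1.22% to 1.54% with a replicate left out. The count of 2 machinery genes of 61 became 4 with the conservative list (background 2.36%) and 4 with either list (2.76%). It was 3 at 1000 bp and 3 with the gene body, 1 at 100 bp and 0 in the 500 highest peaks. With that ranked list, of which the conservative list is the stricter selection, it was 8. The median distance of the 8 genes to the nearest summit, 43.1 kb, ran from 41.9 to 99.8 kb with a replicate left out, and over all protein-coding genes 22.3 kb ran from 36.3 to 42.9 kb. The causes were not tested. No paired analysis was possible because there is only 1 group. Depth is unknown, so a gene without a call was not detected at this depth.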

Other observations

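RefSeq names 2 more snpc genes that the list does not hold. The gene snpc-1.4 (R05F9.11, chromosome II, 4911771 to 4914218) had its nearest whole-series thresholded summit 8887 bp downstream. A ranked call of 41.7 lay 199 bp upstream in replicate 2, and the nearest in replicate 1 was 1270 bp upstream with 13.7. The pseudogene snpc-3.3 (chromosome I, 216028 to 217002) had its nearest whole-series thresholded summit 15939 bp downstream.

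For 3 members without a peak of their own, the nearest whole-series thresholded summit sat at the 5' end of another gene. The one nearest to snpc-4 lay 25 bp downstream of the 5' end of the tRNA gene WBGene00014545, where the signal value was 108. The one nearest to snpc-1.2 lay 29 bp upstream of Y39E4B.6 (90.8), and the one nearest to snpc-1.3 lay 50 bp upstream of nhr-47, a nuclear hormone receptor gene (108).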
